A study of Homo sapiens with 2 samples.

Results

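The zinc finger genes of human chromosome 19 were followed in the RNA of HEK293 cells, which derive from human embryonic kidney, with and without the endoplasmic reticulum kinase PERK. They were taken as the rows of the deposited gene tables whose name is ZNF or ZFP followed by digits, with or without 1 letter at the end, whose position is on chromosome 19, and whose FPKM was at least 0.5 in at least one sample. FPKM counts the fragments of a gene relative to the length of its transcript and to all mapped fragments of the sample. Of the 25277 rows of the tables, 256 were chromosome 19 rows with such a name, and 239 of these passed the limit and are the genes described here. The genes were thus selected on the same FPKM values that are given below, so their levels are a description.

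WT HEK293 cells and PERK-KO HEK293 cells, both at passage 15 to 20, were compared after 12 h in OXPHOS medium, in which galactose and pyruvate take the place of glucose so that the cells depend on mitochondrial respiration for ATP. Polyadenylated RNA was sequenced from 1 sample per genotype. The PERK-KO cells were made with CRISPR/Cas9 and grown from single cells, so the loss of PERK and the history of that clone cannot be told apart. Because there were no replicates, no test was made, and the confidence limits given beside each FPKM are those deposited by the authors, which cover the counting and assignment of fragments within a sample and not the spread between cultures.

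Most zinc finger proteins encoded on chromosome 19 carry a KRAB domain in front of a row of C2H2 fingers. The fingers bind DNA, often in transposable elements, and the KRAB domain recruits the scaffold protein TRIM28, through which the histone H3 lysine 9 methyltransferase SETDB1 and HP1 proteins silence the bound region. The genes arose by repeated local duplication and therefore stand side by side in clusters on both arms of the chromosome, with many close relatives among neighbours.

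EIF2AK3, the gene of PERK, had an FPKM of 5.61 (5.11 to 6.12) in WT and 3.89 (3.44 to 4.34) in PERK-KO cells, with a log2 ratio of −0.53. FPKM counts its transcripts whether or not they still encode the whole protein. Of the 5 genes listed as markers of HEK293 cells, IRS4 had 0.121 in WT and 27.1 in PERK-KO cells and NEFM 0.662 and 5.21, while NEFL had 44.9 and 33.4, PAX2 0.981 and 0.748, and LIN28B 4.16 and 7.05. The summed level of these 5 was 50.8 in WT and 73.5 in PERK-KO cells, none of them was at 0, and 3 of the 5 were past 1.5-fold higher in PERK-KO cells. Among genes of other tissues, ALB was listed at 0 in both samples, and PTPRC and KRT5 were at most 0.180. The part that this difference between the 2 lines has in the values below was not tested. Depth was not in the files, but for the 186 genes whose limits gave whole numbers of fragments to within 0.02, the FPKM that 1 fragment stands for was 1.14 times higher in the PERK-KO than in the WT sample. The limits of the zinc finger genes corresponded to a median of 240 fragments per gene in WT and 208 in PERK-KO cells, and the median distance from a value to its upper limit was 12.9% and 13.9% of the value.

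The zinc finger genes of chromosome 19 were mostly expressed at low and similar levels. Their mean FPKM over both samples had a median of 4.02, with the middle 50% between 2.12 and 6.41 and a range from 0.383 to 126. Of the 239 genes, 228 reached 1 FPKM and 24 reached 10 FPKM in at least one sample. The 8 highest genes were ZNF358, ZNF428, ZNF580, ZNF787, ZNF581, ZNF444, ZNF146 and ZNF579, and none of them carried the KRAB pattern described below.

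ZNF358 was the highest, at 139 (135 to 143) in WT and 114 (110 to 118) in PERK-KO cells, with a log2 ratio of −0.28. ZNF428, a short protein in which 1 finger pattern was found, had 100.5 (94.6 to 106) and 68.1 (63.6 to 72.7), a log2 ratio of −0.56. ZNF444, a SCAN domain protein, had 55.4 (52.4 to 58.3) and 39.0 (36.5 to 41.5), a log2 ratio of −0.50. In these 3 genes the limits of the 2 samples did not overlap, and WT was the higher sample. ZNF787 had 51.2 (48.7 to 53.6) and 51.4 (48.8 to 54.0), and ZNF146, a protein made almost wholly of fingers, had 43.1 (41.2 to 45.1) and 40.4 (38.5 to 42.3). For ZNF787 and ZNF146 the limits overlapped. Over all 239 genes the FPKM summed to 1609 in WT and 1501 in PERK-KO cells.

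**Figure D1:**
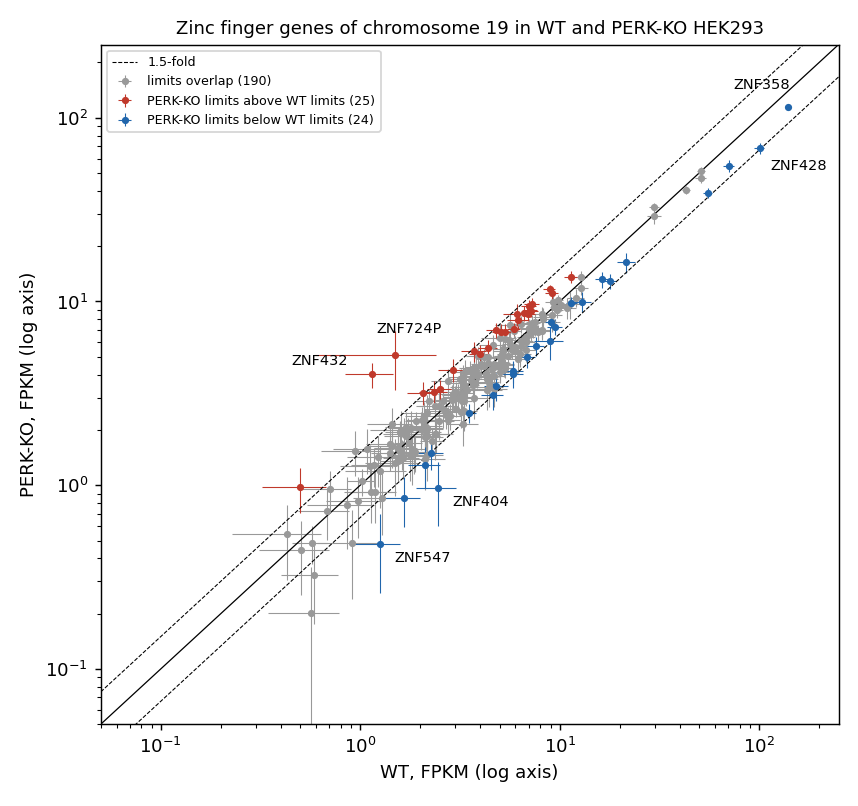
FPKM of the 239 zinc finger genes of chromosome 19 in WT cells (x axis) and PERK-KO cells (y axis), both on log axes, with the deposited confidence limits as bars, the line of equality and dashed lines at 1.5-fold. The limits overlap for 190 genes, lie higher in PERK-KO cells for 25 and lower for 24, and ZNF432 and ZNF724P stand furthest above the line.

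Across the group the 2 samples were close. The log2 WT and log2 PERK-KO FPKM had a Pearson r of 0.959 and a Spearman rho of 0.954 over the 239 genes, which share both libraries and are not independent of each other. Over all 15598 features rho was 0.976 and r 0.191, and r was 0.970 without the 36 features under 0.01 FPKM in either sample. The log2 ratio of PERK-KO to WT had a median of −0.050, with quartiles at −0.22 and 0.18, and 133 genes lay below 0 and 106 above. Only 5 genes (2.09%) were past 1.5-fold higher in PERK-KO cells, against 10.6% of all 15598 features past the same limit, and 12 (5.02%) were past 1.5-fold lower, against 8.07%. The deposited limits did not overlap and were higher in PERK-KO cells for 25 genes (10.5%), against 24.9% of all features, and lower for 24 genes (10.04%), against 17.7%, so that they did not overlap for 49 genes (20.5%) in either direction, against 42.5%. Both criteria together held for 4 genes in the higher direction, against 7.83% of all features, and for 6 in the lower direction, against 5.26%. At like levels the share with higher limits was also below that of all features, 9.09% of 99 genes against 22.1% for a mean FPKM of 2 to 5 and 18.2% of 66 genes against 32.9% for 5 to 10. The share with lower limits was 4.04% against 7.10% in the first of these classes and 9.09% against 9.20% in the second. In the remaining classes it was above that of all features. It was 8.33% of 12 genes against 5.01% under 1 FPKM, and 10% of 40 against 5.74% for 1 to 2. For 10 to 20 FPKM it was 38.5% of 13 genes against 14.5%, and from 20 upward 44.4% of 9 against 38.4%.

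The zinc finger genes of the other chromosomes, named by the same rule, lay differently. Of these 255 genes, 29 (11.4%) were past 1.5-fold higher and 5 (1.96%) past 1.5-fold lower in PERK-KO cells, and their median log2 ratio was 0.16. Their median transcript length, 3932 bases, was close to the 3982 bases of the chromosome 19 genes. The other 899 genes of chromosome 19 had a median log2 ratio of −0.097, with 50 (5.56%) past 1.5-fold higher and 106 (11.8%) lower, and a shorter median transcript of 2244 bases. The 139 other genes that lie inside the zinc finger clusters had a median of −0.13. These medians are set side by side as a description, since each comes from the same 2 libraries.

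**Figure D2:**
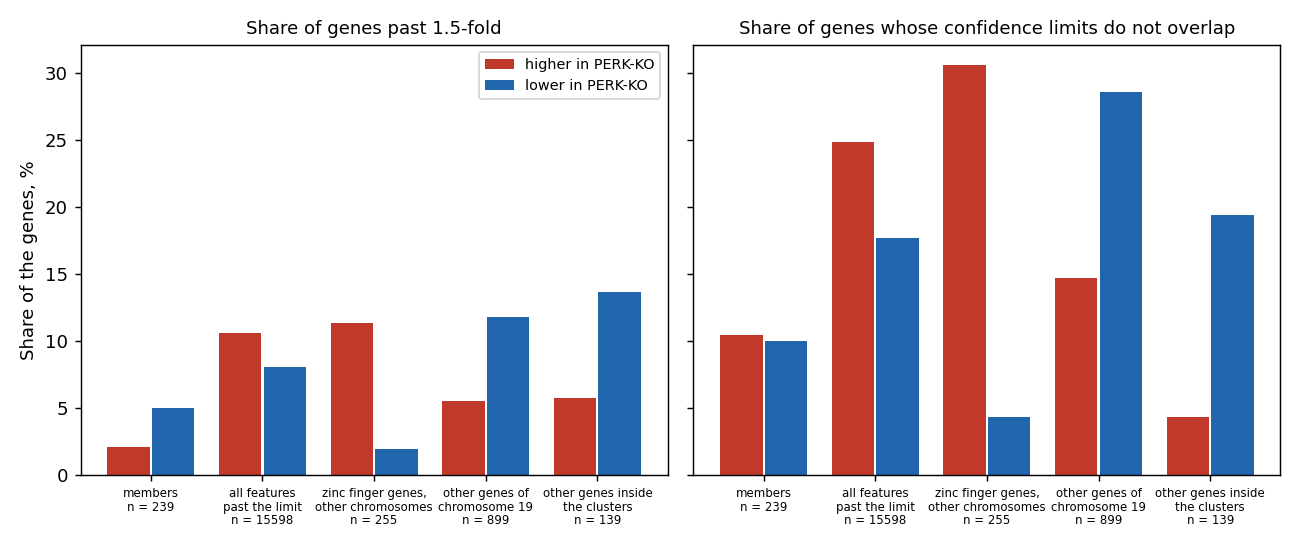
Share of genes (y axis, %) higher (red) or lower (blue) in PERK-KO cells, by a 1.5-fold limit (left) and by deposited limits that do not overlap (right), for the members (n = 239) and 4 comparison groups. Of the chromosome 19 zinc finger genes 2.09% are past 1.5-fold higher, against 11.4% of the zinc finger genes of the other chromosomes.

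The 2 genes with the largest ratios were ZNF432 and ZNF724P. ZNF432, a KRAB protein with 16 finger patterns that has been linked to the DNA damage response, had an FPKM of 1.15 (0.836 to 1.46) in WT and 4.01 (3.39 to 4.64) in PERK-KO cells, 3.49 times as much and a log2 ratio of 1.80. Its limits corresponded to 53.9 fragments in WT and 165 in PERK-KO cells. ZNF724P, listed as a pseudogene in the tables and as the coding gene ZNF724 in the newer annotation, had 1.49 (0.589 to 2.39) and 5.11 (3.29 to 6.92), a log2 ratio of 1.78. Its limits were wide and corresponded to only 11 and 31.5 fragments, numbers that reflect assignment as well as counting. Of the 50-base windows of its transcript, 55.2% also occur in transcripts of another gene.

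The other 3 genes past 1.5-fold higher had smaller ratios. ZNF257 had 0.497 (0.322 to 0.672) in WT and 0.972 (0.708 to 1.24) in PERK-KO cells, with a log2 ratio of 0.97. ZNF98 had 0.944 (0.638 to 1.25) and 1.54 (1.13 to 1.96), a log2 ratio of 0.71, and its limits overlapped. ZNF175, also known as OTK18 and studied as a repressor of HIV transcription in macrophages, had 2.06 (1.72 to 2.40) and 3.19 (2.74 to 3.64), a log2 ratio of 0.63. Among the genes whose limits did not overlap, ZNF324B, ZNF841, ZNF420, ZNF121, ZFP112 and ZNF628 followed, with log2 ratios from 0.43 to 0.54.

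The largest reductions were in genes of low level. ZNF547 had an FPKM of 1.25 (0.922 to 1.58) in WT and 0.480 (0.260 to 0.70) in PERK-KO cells, so that WT had 2.61 times as much, a log2 ratio of −1.38. ZNF404 had 2.46 (1.91 to 3.01) and 0.965 (0.601 to 1.33), WT having 2.55 times as much, a log2 ratio of −1.35. ZNF599 had 1.67 (1.33 to 2.0) and 0.854 (0.595 to 1.11), a log2 ratio of −0.96. In these 3 genes WT was the higher sample and the limits did not overlap.

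ZNF439 had the most negative log2 ratio of the group, −1.49, at 0.565 (0.345 to 0.784) in WT and 0.201 (0.0433 to 0.358) in PERK-KO cells, but its limits overlapped. The limits also overlapped in ZNF20, ZNF418, ZNF135, ZNF57 and ZNF846, whose log2 ratios ran from −0.91 to −0.59. ZNF702P, a pseudogene, had 2.12 (1.73 to 2.50) and 1.29 (0.966 to 1.62), a log2 ratio of −0.71. ZNF441 and ZNF564 were just past 1.5-fold lower, with log2 ratios of −0.60 and −0.59, and ZNF577, ZNF428, ZNF429 and ZNF444 fell just short of it, from −0.56 to −0.50. ZNF564 shares 86.2% of its windows, nearly all with 1 other annotated gene, and ZNF20 shares 73.3% with the read-through transcripts of ZNF625 and ZNF20, so the fragments of these genes could have been divided among them.

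**Figure D3:**
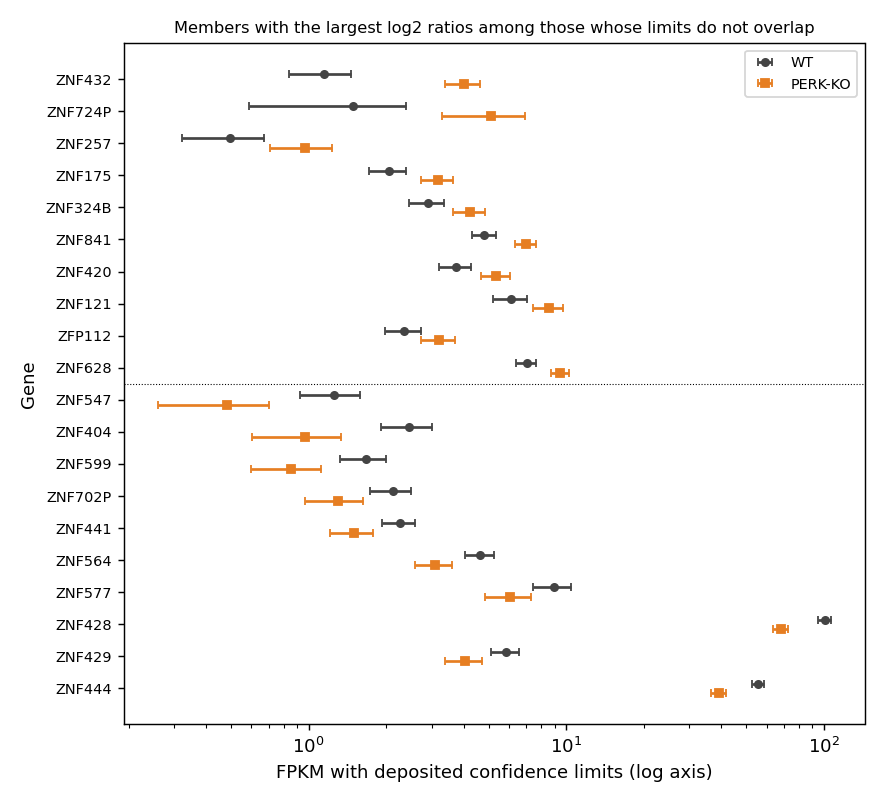
FPKM (x axis, log scale) in WT (circles) and PERK-KO cells (squares), with deposited limits as bars, for the 10 members with the largest increases (above the dotted line) and the 10 with the largest reductions (below it) among those whose limits do not overlap. ZNF432 goes from 1.15 to 4.01 and ZNF547 from 1.25 to 0.480, whereas ZNF428 and ZNF444 differ by under 1.5-fold with narrow limits.

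The promoters of 4 genes, the 2 with the largest ratios in each direction among those whose limits do not overlap, are shown because the study followed GABPα, a factor of the ETS family that binds sites around CCGGAAG. Each runs 5′ to 3′ on the strand of the gene from 250 bases before to 50 bases after the RefSeq start (GRCh38.p14), and capitals mark CCGGAAG on either strand, which reads CTTCCGG on the other. ZNF432 is at chr19:52048512-52048811 on the minus strand, ZNF724P at chr19:23250345-23250644 on the minus strand, ZNF547 at chr19:57363301-57363600 on the plus strand and ZNF404 at chr19:43883915-43884214 on the minus strand.
ZNF432: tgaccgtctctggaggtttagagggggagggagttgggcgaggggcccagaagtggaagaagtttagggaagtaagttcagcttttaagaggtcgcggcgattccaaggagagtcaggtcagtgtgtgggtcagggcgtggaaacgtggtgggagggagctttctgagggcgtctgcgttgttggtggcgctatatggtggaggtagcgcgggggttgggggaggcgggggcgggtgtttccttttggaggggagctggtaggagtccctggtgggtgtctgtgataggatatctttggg
ZNF724P: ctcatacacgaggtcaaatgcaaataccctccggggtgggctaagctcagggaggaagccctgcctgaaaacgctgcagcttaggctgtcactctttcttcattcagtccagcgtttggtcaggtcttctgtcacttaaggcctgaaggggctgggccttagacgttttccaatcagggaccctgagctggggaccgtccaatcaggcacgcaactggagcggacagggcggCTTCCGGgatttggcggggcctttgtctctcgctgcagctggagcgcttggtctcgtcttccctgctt
ZNF547: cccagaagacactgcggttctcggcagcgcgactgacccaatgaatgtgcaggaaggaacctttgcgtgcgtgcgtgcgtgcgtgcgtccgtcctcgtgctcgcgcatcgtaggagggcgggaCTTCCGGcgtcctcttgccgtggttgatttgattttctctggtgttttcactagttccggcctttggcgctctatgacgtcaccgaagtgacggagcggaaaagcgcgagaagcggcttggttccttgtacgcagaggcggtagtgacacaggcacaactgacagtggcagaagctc
ZNF404: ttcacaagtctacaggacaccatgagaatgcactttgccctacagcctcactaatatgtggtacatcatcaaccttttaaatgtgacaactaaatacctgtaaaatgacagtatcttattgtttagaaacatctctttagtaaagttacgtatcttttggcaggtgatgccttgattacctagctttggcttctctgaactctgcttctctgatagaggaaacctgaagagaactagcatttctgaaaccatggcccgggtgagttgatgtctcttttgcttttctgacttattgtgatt
One gene of each pair, ZNF724P among the higher and ZNF547 among the lower, held the motif in this window.

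Along the chromosome the genes fell on both arms, which were split at the widest stretch of chromosome 19 with no row in the tables, from 24346249 to 28281401 (hg19). On 19p there were 74 genes and on 19q 165. The median log2 ratio was −0.058 on 19p and −0.050 on 19q. On 19p 3 genes (4.05%) were past 1.5-fold higher and 6 (8.11%) lower, and on 19q 2 (1.21%) and 6 (3.64%). Of all features, 10.6% were past 1.5-fold higher and 8.07% lower. The quartiles were nearer to each other on 19p, at −0.17 and 0.094, than on 19q, at −0.23 and 0.20.

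With gaps of up to 1 Mb allowed inside a cluster, the named rows formed 16 clusters, and the 9 that held at least 5 expressed genes contained 228 of the 239. The cluster at chr19:11594242-12740676 (hg19) on 19p, with 24 expressed genes, had a median log2 ratio of −0.13, and 17 of its genes lay below 0. ZNF439, ZNF20, ZNF441 and ZNF564 were past 1.5-fold lower, 16.7% of its genes against 8.07% of all features, with limits apart only in ZNF441 and ZNF564, and none was past it in the other direction, against 10.6%. Its highest gene, ZNF791, had 6.18 (5.44 to 6.92) in WT and 7.90 (7.01 to 8.79) in PERK-KO cells, whereas the median of the cluster was below 0.

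The cluster next to the centromere, chr19:19779663-24312654, held 30 expressed genes with a median log2 ratio of −0.014. ZNF724P, ZNF257 and ZNF98 were past 1.5-fold higher, 10% of its genes against 10.6% of all features, and no gene was past 1.5-fold lower, against 8.07%. Its highest gene, ZNF85, had 13 (11.7 to 14.3) in WT and 9.97 (8.74 to 11.2) in PERK-KO cells, with a log2 ratio of −0.38. ZNF91, the repressor of SVA retrotransposons, had 5.97 (5.48 to 6.45) and 5.38 (4.90 to 5.87), with limits that overlapped. The smaller 19p clusters, chr19:2819872-2944969 with 5 genes and chr19:7069471-9879410 with 14, had medians of −0.081 and −0.034, and their highest genes were ZNF554, at 6.55 in WT and 6.07 in PERK-KO cells, and ZNF358.

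On 19q, the cluster at chr19:36673187-38270230 held 28 expressed genes, with a median log2 ratio of −0.076. None of these genes was past 1.5-fold in either direction, against 18.7% of all features. The cluster at chr19:35168567-35454953 held 5, with the lowest median of the 9 clusters, −0.22, and its highest gene ZNF302 had 17.8 (16.5 to 19.2) in WT and 12.9 (11.7 to 14.1) in PERK-KO cells. The cluster at chr19:44037340-45579688 held 23 genes with a median of −0.088, among them ZNF404. The cluster at chr19:52074531-54083523 held 41 genes and was the only one of the 9 with a median above 0, at 0.067. It contained ZNF432 and ZNF175, and its highest gene ZNF331, an imprinted gene, had 9.12 (8.43 to 9.81) and 11.1 (10.2 to 11.9). The largest cluster, chr19:55987699-58992597 near the end of the long arm, held 58 genes with a median of −0.016. None was past 1.5-fold higher, against 10.6% of all features. Past 1.5-fold lower were 3 (5.17%, against 8.07%), ZNF547, ZNF418 and ZNF135.

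**Figure D4:**
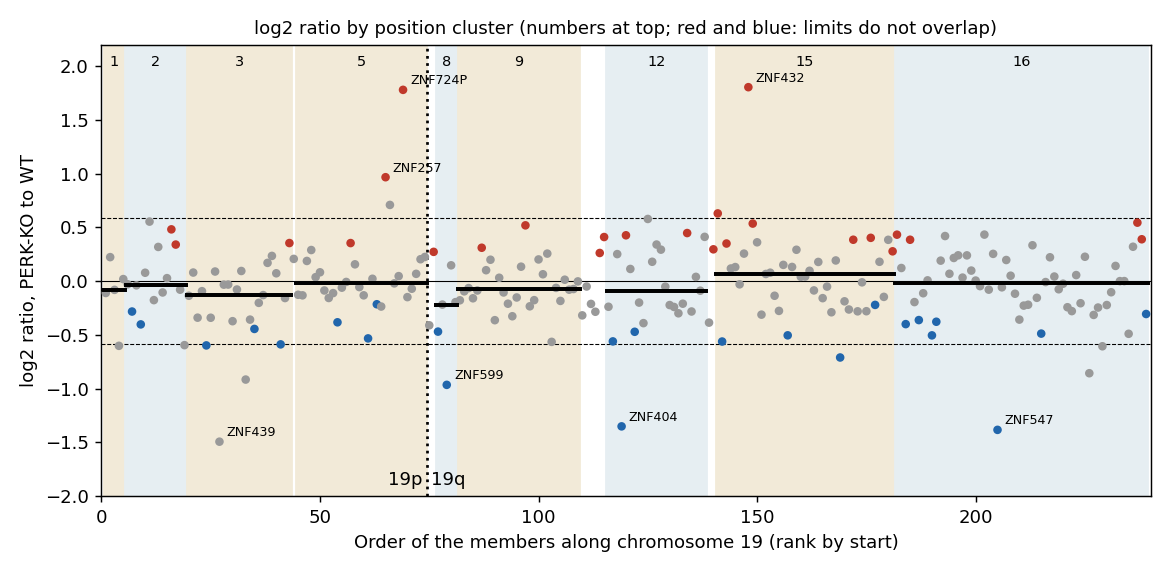
log2 ratio of PERK-KO to WT (y axis) of the 239 members in their order along chromosome 19 (x axis), with the 9 clusters of at least 5 members shaded, their medians as black bars and dashed lines at 1.5-fold. Cluster medians lie between −0.22 and 0.067, and ZNF432, ZNF724P, ZNF547 and ZNF404 stand apart from the genes around them.

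The genes with the largest ratios were picked by those ratios, so how they differ from their neighbours is only a description. ZNF432 lies 5.0 kb from ZNF614, which had 4.18 (3.75 to 4.62) in WT and 5.0 (4.50 to 5.50) in PERK-KO cells, and 15.6 kb from ZNF841, which had 4.80 (4.29 to 5.31) and 6.96 (6.30 to 7.62). The log2 ratios of these neighbours were 0.26 and 0.54, against 1.80 for ZNF432, and the limits of ZNF841 were also higher in PERK-KO cells. ZNF724P lies 107 kb from ZNF91 and 221 kb from ZNF728, which was under the FPKM limit. Their log2 ratios were −0.15 and 0.52, against 1.78. ZNF547 lies 3.63 kb from ZNF304 and 10.3 kb from ZNF548, whose log2 ratios were 0.25 and −0.057, against −1.38. ZNF404 lies between ZNF283 and ZNF45, whose log2 ratios were 0.25 and 0.43, against −1.35. Over the 223 pairs of adjacent expressed genes within a cluster, the log2 ratios differed by a median of 0.26, and over all 28441 pairs of the group by 0.30. Their log2 levels differed by a median of 0.94 between adjacent genes and 1.10 over all pairs.

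Transcript length moved with the ratio in these libraries. Over the 14518 features past the limit with a reference transcript, the log2 ratio and the log2 length had a Spearman rho of 0.42 and a Pearson r of 0.042, and without features under 0.01 FPKM in either sample 0.42 and 0.34. Over 237 of the zinc finger genes rho was 0.23 and r 0.21, in all cases across genes that share the same 2 libraries. The 63 zinc finger genes of 5000 bases or more had a median log2 ratio of −0.050, against 0.25 for all 3668 features of that length and 0.26 for the 84 zinc finger genes of other chromosomes. Those of 4000 to 5000 bases had 0.047 (52 genes) against 0.16, and those of 3000 to 4000 bases 0.019 (48 genes) against 0.081. Those of 2000 to 3000 bases had −0.093 (53 genes) against −0.021, and those of 1000 to 2000 bases −0.35 (20 genes) against −0.17. In each of these 5 length classes the chromosome 19 genes had the lower median.

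When the running median of the 500 features nearest in length was subtracted, the median of the chromosome 19 genes was −0.16, against 0.026 for the zinc finger genes of other chromosomes, −0.058 for the other genes of chromosome 19 and −0.076 for the other genes inside the clusters. It was −0.17 on 19p and −0.15 on 19q, and the cluster at chr19:52074531-54083523 then lay below 0, at −0.083. With this subtraction 5 of 237 genes were past 1.5-fold higher, against 7.43% of all features, and 18 of 237 lower, against 6.19%. The share past 1.5-fold lower was then above that of all features, whereas without the subtraction it was below, at 5.02% against 8.07%. Leaving out all zinc finger genes so named, chromosome 19 had the sixth lowest length-adjusted median of the 23 chromosomes with at least 50 such features, the medians running from −0.14 for chromosome 5 to 0.15 for chromosome 1.

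By protein sequence the group divided into genes in which a KRAB pattern was found and a smaller set in which it was not. The pattern was searched in 1 transcript per gene, so a gene without it may still encode the domain. The amino acid sequence was read from the annotated transcript for 229 genes, and a pattern for the KRAB A box, the part of the domain that contacts TRIM28, was found in 183 of them (79.9%) and in 1.68% of all 19566 proteins read. Genes with the pattern had a median FPKM of 3.58 and those without it, 46 genes, 7.62. The median log2 ratio was −0.029 with the pattern and −0.10 without, and after the length subtraction −0.17 and −0.13. All 5 genes past 1.5-fold higher and 10 of the 12 past 1.5-fold lower carried it. The exceptions were ZNF702P, for which no protein is annotated, and ZNF564, in which the pattern was not found. Of the 183 genes with the pattern, 2.73% were past 1.5-fold higher and 5.46% lower, against 10.6% and 8.07% of all features.

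Among genes with at least 1 finger pattern, the median level fell as the number of patterns rose. The 11 genes with 1 to 5 finger patterns, among them ZNF428, ZNF444, ZNF580, ZNF581, ZNF524 and ZNF446, had a median FPKM of 19, and all 11 had a log2 ratio below 0, with a median of −0.31. Their median transcript length was 2050 bases. Of all features, 70.2% of those of 1000 to 2000 bases and 52.2% of those of 2000 to 3000 bases lay below 0. After the length subtraction the median of the 11 genes was −0.24, and ZNF581 lay above 0, at 0.15. ZNF580 had 70.3 (65.7 to 74.9) in WT and 54.7 (50.5 to 58.9) in PERK-KO cells, whereas its neighbour ZNF581 had 51.0 (47.9 to 54.2) and 47.2 (44 to 50.5), with limits that overlapped. The 67 genes with 6 to 10 patterns had a median FPKM of 4.63, the 99 with 11 to 15 had 3.74, and the 51 with over 15 had 3.07. In these 51, the limits were higher in PERK-KO cells for 10 genes (19.6%, against 24.9% of all features) and lower for 0 (against 17.7%), and 27 of them had a log2 ratio below 0. ZFP36, which encodes the RNA-binding protein tristetraprolin, has fingers of another type and no pattern, and it had 2.36 (1.81 to 2.92) and 1.90 (1.37 to 2.42).

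A list of 20 chromosome 19 zinc finger genes with a known role held 19 of the expressed genes. None of these was past 1.5-fold, against 18.7% of all features in either direction. The limits were higher in PERK-KO cells for 4 of them and lower for 1, where 24.9% and 17.7% of all features were. ZNF420, a repressor of p53 activity, had 3.74 (3.21 to 4.26) in WT and 5.35 (4.68 to 6.02) in PERK-KO cells, with a log2 ratio of 0.52. ZNF473, which takes part in the 3′ end processing of histone mRNAs, had 6.95 (6.36 to 7.55) and 8.54 (7.82 to 9.25), a log2 ratio of 0.30. ZNF331 and ZNF649, a KRAB repressor, were the others, at 0.28 and 0.35. ZNF444 was the only one of the list whose limits were lower in PERK-KO cells.

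ZNF611, which binds SVA elements as ZNF91 does, had 3.02 (2.62 to 3.42) in WT and 3.23 (2.80 to 3.66) in PERK-KO cells. ZNF587 and ZNF417, near-identical repressors of endogenous retroviruses, had 9.79 (9.17 to 10.4) and 10.2 (9.46 to 10.9) for the first, and 5.91 (5.39 to 6.42) and 6.92 (6.32 to 7.51) for the second. ZNF808, required for development of the pancreas, had 1.18 and 1.29. ZNF274, which brings SETDB1 to the 3′ ends of other zinc finger genes, had 12.8 (11.7 to 13.9) and 11.9 (10.8 to 13). The limits overlapped in each of these 5 genes. ZNF160, ZNF304, ZNF382, ZNF653, ZNF675 and ZNF224, which act on other targets, also had overlapping limits, with log2 ratios from −0.19 to 0.34.

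Close relatives of the family can share fragments. The 5 pairs of highest protein identity were ZNF587 and ZNF417 (98.1%), ZNF585A and ZNF585B (94.5%), ZNF98 and ZNF492 (90.9%), ZNF799 and ZNF443 (89.1%), and ZNF264 and ZNF805 (85.6%). ZNF98, past 1.5-fold higher, shares 58.1% of its 50-base windows with other genes, mostly with ZNF492, which had 5.08 (4.58 to 5.58) in WT and 5.01 (4.47 to 5.54) in PERK-KO cells. ZNF585A and ZNF585B had log2 ratios of −0.23 and −0.18, ZNF799 and ZNF443 0.17 and 0.24, and ZNF264 and ZNF805 0.0058 and −0.046, and the limits overlapped in all 6 of these genes. Over the 237 genes with a reference transcript the shared windows had a median of 3.17%, and 24 genes shared over 25%. Without these 24, 3 genes were past 1.5-fold higher and 10 past 1.5-fold lower.

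A promoter sequence was matched for 204 of the 239 genes. CCGGAAG, searched on both strands from 250 bases before to 50 after the start, was found in 86 (42.2%), against 29.5% of the 275 promoters of zinc finger genes of other chromosomes, 15.9% of the 901 promoters of other chromosome 19 genes, 15.6% of the 15542 promoters of features past the limit and 10.3% of all 35116 promoters. The share differed between clusters, from 2 of 21 at chr19:11594242-12740676 and 4 of 26 at chr19:36673187-38270230 to 19 of 25 at chr19:19779663-24312654, 18 of 31 at chr19:52074531-54083523 and 29 of 51 at chr19:55987699-58992597 (hg19). The median log2 ratio was −0.026 for the genes with the motif and −0.078 for those without it, and the median FPKM 4.36 and 4.0. GGGCGG, the core of the GC box, was found in 65.2% of the zinc finger promoters, close to the 64.8% of features past the limit and below the 73.7% of other chromosome 19 genes, with 45.0% of all promoters. AAGATGGC, the core of the YY1 motif, was found in 6.37%, against 4.43%, 6.66% and 2.89% in the same order, and TATAAA in 2.94%, against 6.56%, 5.44% and 11.5%. CCGGAAG can share its last 3 letters with AAGATGGC, and on the other strand its final GG with GGGCGG, so 1 stretch can count for both. The chromosome 19 zinc finger genes were given at most 1 promoter each, whereas the other sets hold every promoter listed under a name. The sets of 15542 and 35116 also include promoters of the genes described here. Promoters copied by duplication are not independent of each other.

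Within clusters the promoters also shared longer stretches. In the cluster next to the centromere, 12 of the 25 promoters held the same 16 bases, which were found in no promoter of the other clusters and in 1 of the 34912 other promoters of the table. This word was picked as the most shared in the cluster and, among equally shared words, as the rarest in promoters outside the group. Its rarity in those other promoters is therefore partly set by the choice. The stretches are shown with 12 bases on either side so that the bases beside the word can be compared. Capitals mark the shared word, which starts between 225 and 157 bases before the start. Sequences are from RefSeq (GRCh38.p14) and read 5′ to 3′ on the strand of each gene.
ZNF90: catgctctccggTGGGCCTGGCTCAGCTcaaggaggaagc
ZNF486: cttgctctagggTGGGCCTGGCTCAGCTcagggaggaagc
ZNF737: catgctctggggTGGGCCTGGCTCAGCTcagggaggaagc
ZNF626: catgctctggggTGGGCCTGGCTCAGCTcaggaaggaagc
ZNF430: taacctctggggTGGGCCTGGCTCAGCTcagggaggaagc
ZNF714: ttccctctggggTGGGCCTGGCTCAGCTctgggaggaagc
ZNF708: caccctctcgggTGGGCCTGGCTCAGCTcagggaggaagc
ZNF429: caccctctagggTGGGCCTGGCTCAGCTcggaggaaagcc
ZNF208: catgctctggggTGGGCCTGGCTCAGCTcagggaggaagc
ZNF257: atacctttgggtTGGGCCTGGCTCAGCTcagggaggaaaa
ZNF675: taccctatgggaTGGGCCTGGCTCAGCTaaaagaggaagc
ZNF254: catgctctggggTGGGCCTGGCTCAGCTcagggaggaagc
The first of these is at chr19:20077768-20077807 on the plus strand and the last at chr19:24086960-24086999 on the plus strand. The FPKM of these 12 genes ran from 0.497 for ZNF257 to 9.42 for ZNF714 in WT and from 0.485 for ZNF208 to 9.37 for ZNF714 in PERK-KO cells. Their log2 ratios ran from −0.53 for ZNF429 to 0.97 for ZNF257, with a median of −0.065, and the 13 other promoters of the cluster had a median of −0.020. The most widely shared words of the other clusters were carried by 2 to 8 genes each, among them 3 of 13 at chr19:7069471-9879410, where ZNF121, ZNF561 and ZNF562 share one and had a median log2 ratio of 0.34.

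The proteins through which KRAB zinc finger proteins act were measured beside them. Of 33 genes listed, none was past 1.5-fold higher in PERK-KO cells and 1 was past 1.5-fold lower, against 10.6% and 8.07% of all features, and the limits were higher for 15 and lower for 4, against 24.9% and 17.7%. These counts, and the ratios below unless stated, are without the length subtraction. TRIM28, the scaffold, had 352 (347 to 357) in WT and 318 (313 to 323) in PERK-KO cells, with a log2 ratio of −0.14. SETDB1, the methyltransferase, had 14.6 (13.6 to 15.7) and 20.0 (18.6 to 21.3), a log2 ratio of 0.45, and ATF7IP, its partner, had 9.16 (8.52 to 9.80) and 13.5 (12.6 to 14.3), a log2 ratio of 0.56. Of the HP1 proteins, CBX3 had 149 (142 to 156) and 106 (100.4 to 111), CBX5 25.7 (24.6 to 26.8) and 36.0 (34.4 to 37.7), and CBX1 71.4 (67.6 to 75.3) and 75.7 (71.5 to 79.9). After the length subtraction SETDB1, ATF7IP, CBX5 and CBX1 had 0.31, 0.26, 0.13 and 0.13, and TRIM28 and CBX3 had −0.23 and −0.44.

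MPHOSPH8, the chromodomain subunit of the HUSH complex that silences retroelements with SETDB1, was the 1 gene past 1.5-fold lower, at 36.2 (34.9 to 37.6) in WT and 20.3 (19.2 to 21.4) in PERK-KO cells, with a log2 ratio of −0.84. Its partners FAM208A, PPHLN1 and MORC2 had log2 ratios of 0.24, 0.013 and 0.45, and of −0.076, 0.11 and 0.26 after the length subtraction. Of the 13 NuRD genes the limits were higher for 6, HDAC1, MTA1, MTA2, RBBP4, GATAD2A and GATAD2B, and lower for MBD3, at 176 (172 to 180) and 147 (143 to 151). After the length subtraction these 6 had 0.20, 0.15, 0.066, 0.21, 0.048 and −0.15 in that order, and MBD3 had −0.45. CHD3, CHD4, HDAC2, MTA3, MBD2 and RBBP7 had overlapping limits. The H3 lysine 9 methyltransferases EHMT1, EHMT2, SUV39H1 and SUV39H2 had log2 ratios of 0.22, 0.15, −0.098 and 0.16. DNMT1, DNMT3A and DNMT3B, the DNA methyltransferases, had 0.34, 0.34 and 0.56 with limits that were higher in PERK-KO cells, and their cofactor UHRF1 had −0.094. After the length subtraction they had 0.19, 0.049 and 0.43, and UHRF1 −0.22. ATRX and DAXX, which deposit a histone variant at silenced repeats, had −0.059 and 0.12 without this subtraction.

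Of the 256 named rows, 17 stayed under the limit, all with a value above 0 in at least one sample. Just inside the limit were ZNF540, at 0.506 in WT and 0.446 in PERK-KO cells, ZNF224, a repressor of the aldolase A gene, at 0.431 and 0.545, and ZNF439. Just outside were ZNF826P, at 0.0509 and 0.494, ZNF812, at 0.456 and 0.365, and ZNF93, a repressor of L1 retrotransposons, at 0.342 (0.180 to 0.504) and 0.434 (0.238 to 0.629). ZNF560 was listed at 0 in PERK-KO cells and at 0.0952 (0.0101 to 0.180) in WT cells. In WT, 3 fragments come to about 0.0902 FPKM in transcripts of 1000 to 3000 bases. That figure depends on length and does not give the fragments of ZNF560.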

How the data were processed

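Total RNA was isolated, polyadenylated RNA was purified and libraries were sequenced, 1 per genotype. The authors mapped reads to GRCh37/hg19 with TopHat2 2.0.13 and deposited, per gene, FPKM and its confidence limits from Cufflinks 2.2.1 and Cuffdiff, with no counts. Both tables list the same rows, 1305 of them off the main chromosomes and unused here. The unit FPKM fits no count model, so log2 ratios without pseudocount were described for features with FPKM of at least 0.5 in either sample and above 0 in both. 200 features listed at 0 in one sample were left out, none of them a zinc finger gene of chromosome 19. Lengths, strands and proteins came from canonical GENCODE 44 transcripts on GRCh37, matched by symbol and position (237 of 239 genes). 1 gene (ZNF274) lost its reading frame and has no protein features. Promoters came from RefSeq (GRCh38.p14). Genes were named by size of ratio with limits that did not overlap, by level, by cluster, by protein identity and from lists. ZNF439, ZNF98 and the other calls with overlapping limits, the neighbouring genes and ZNF560 were named after their values were seen. The members and all lists were chosen with earlier results of these data known. Alternatives were other FPKM limits, pseudocounts, scalings, names and folds. Python 3.11.15, numpy 2.4.6, pandas 2.3.3, scipy 1.17.1, Biopython 1.88 and matplotlib 3.10.9 were used. 1 gene of the marker lists is not reported here.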

Additional observations from a re-analysis of the deposited data

How the results depend on the processing

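The count of genes past 1.5-fold higher in PERK-KO cells, 5, became 10 with no FPKM minimum, 2 with a pseudocount of 1 and 2 at 2-fold, and 3 without the 24 genes that share over 25% of their windows, an alternative chosen after seeing the data. The count past 1.5-fold lower, 12, became 7 with a pseudocount of 0.1, 2 with a pseudocount of 1, 3 at 2-fold and 6 where the limits also had to be apart. The median log2 ratio, −0.050, became −0.088 with all features centred on a median of 0 and −0.162 after subtraction of the running median by length, under which the cluster at chr19:52074531-54083523 reversed from 0.067 to −0.083. Under the other alternatives run, the counts stayed within 1.5 times and the medians of the whole group between −0.051 and −0.039. No paired analysis was possible because each genotype has 1 sample, and leaving out a replicate was not possible for the same reason. Low FPKM limits what can be seen. Fragment numbers were worked out from the width of the limits, which also covers assignment, and are not counts. The limits of ZNF724P are wide and correspond to 11 fragments in WT. Those of ZNF726, at a lower WT FPKM of 1.23, correspond to 43.3. With 55.2% of its windows shared as well, the ratio of ZNF724P is known only loosely.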
